A study of Homo sapiens with 15 samples.

Results

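The replication-dependent histone genes were followed in PC3 and DU145 prostate cancer cells that had received a microRNA mimic. Members were the array features with 1 gene symbol whose symbol is that of a clustered histone gene, in the older form (HIST1H, HIST2H, HIST3H, HIST4H) or in the current form (H1-1 to H1-5, and H2AC, H2BC, H3C or H4C with a number). This gave 55 genes out of 18377 with 1 symbol: 5 of histone H1, 14 of H2A, 17 of H2B, 8 of H3 and 11 of H4. Of these, 54 code for protein and H2BC19P is a pseudogene, and each was measured by 1 feature of the Affymetrix Human Gene 1.0 ST array. Messenger levels came from 15 arrays, 8 of PC3, a line the labels trace to a bone metastasis, and 7 of DU145. In each line cells were left untransfected or were reverse transfected, with a Lipofectamine reagent, with 20 nM of a mimic of miR-224, of miR-452 or of a scrambled sequence, a mimic being a synthetic RNA that supplies a mature microRNA from outside. All cells grew in RPMI medium with serum, the transfected ones had new medium after 6 h, and RNA was taken at 48 h. Each group had 2 arrays, except that 1 array stood for DU145 with the scrambled mimic. Nothing in the labels tells whether the arrays of a group were separate transfections, so the p-values cover only the spread between these arrays.

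Replication-dependent histone genes supply the proteins that package newly copied DNA. H3 and H4 form the core of the nucleosome, H2A and H2B complete it, and H1 binds the linker DNA outside it. Many near-identical genes encode each type, most of them in a cluster on the short arm of chromosome 6, and they are switched on together as cells enter S phase. Their messengers end in a stem-loop bound by SLBP, the stem-loop binding protein, and not in a poly(A) tail, and they are degraded quickly when DNA synthesis stops. The labelling kit primes along the length of transcripts and so can take up messengers without a tail.

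A microRNA pairs to messengers mainly through its seed, a run of bases near its start. The labels name miR-224 and miR-452 without the arm, and the 5p strands of RefSeq are shown because they are the forms usually meant, with the seed (bases 2 to 8) in capitals. The genes lie on chromosome X of GRCh38.p14, minus strand, at chrX:151958628-151958652 and chrX:151959678-151959699. The seeds differ.
hsa-miR-224-5p: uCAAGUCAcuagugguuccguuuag
hsa-miR-452-5p: aACUGUUUgcagaggaaacuga

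Promoters of 6 members are shown because the results turn on them: H2BC3 had the largest fall, H2AC13 fell together with the H2B gene on its other side, H3C1 fell in both lines, H1-2 is a linker histone that also makes a polyadenylated messenger, and H4C8 and H2BC12 went up where most members went down. Each line gives the 250 bases before the start site in RefSeq, GRCh38.p14, read 5′ to 3′ on the gene's strand. The windows are chr6:26043714-26043963 (minus) for H2BC3, chr6:27807923-27808172 (plus) for H2AC13, chr6:26020201-26020450 (plus) for H3C1, chr6:26056471-26056720 (minus) for H1-2, chr6:26285535-26285784 (minus) for H4C8 and chr6:27146859-27147108 (minus) for H2BC12. Capitals mark, on either strand, the TATA box letters TATAAA, the CCAAT box bound by NF-Y, the octamer ATTTGCAT bound by POU2F1, and AAACACA, the H1 box. Matches of TATAAA on opposite strands can overlap, as they do in H2BC12.
H2BC3: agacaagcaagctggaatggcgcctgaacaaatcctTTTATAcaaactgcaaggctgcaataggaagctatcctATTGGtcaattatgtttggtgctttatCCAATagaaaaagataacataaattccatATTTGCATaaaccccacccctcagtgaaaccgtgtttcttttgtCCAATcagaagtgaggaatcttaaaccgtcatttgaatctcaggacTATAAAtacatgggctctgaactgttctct
H2AC13: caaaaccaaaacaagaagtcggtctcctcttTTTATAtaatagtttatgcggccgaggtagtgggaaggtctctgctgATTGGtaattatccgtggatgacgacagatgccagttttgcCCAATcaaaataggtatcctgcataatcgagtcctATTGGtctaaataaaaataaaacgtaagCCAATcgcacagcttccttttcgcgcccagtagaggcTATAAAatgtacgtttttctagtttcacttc
H3C1: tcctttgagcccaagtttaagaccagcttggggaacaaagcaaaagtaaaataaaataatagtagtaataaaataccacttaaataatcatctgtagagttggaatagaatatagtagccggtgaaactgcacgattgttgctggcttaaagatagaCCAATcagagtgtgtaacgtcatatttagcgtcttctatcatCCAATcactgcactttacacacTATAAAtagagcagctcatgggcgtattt
H1-2: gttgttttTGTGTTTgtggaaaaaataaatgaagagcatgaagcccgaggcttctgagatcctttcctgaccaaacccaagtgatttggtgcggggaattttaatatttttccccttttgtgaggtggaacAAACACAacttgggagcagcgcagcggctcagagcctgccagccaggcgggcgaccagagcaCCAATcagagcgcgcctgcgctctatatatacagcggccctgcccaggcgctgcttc
H4C8: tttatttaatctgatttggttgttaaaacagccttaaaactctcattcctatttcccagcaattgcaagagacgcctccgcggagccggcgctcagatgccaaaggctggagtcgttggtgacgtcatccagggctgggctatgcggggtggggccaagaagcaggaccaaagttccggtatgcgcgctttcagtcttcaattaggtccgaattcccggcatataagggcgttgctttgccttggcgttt
H2BC12: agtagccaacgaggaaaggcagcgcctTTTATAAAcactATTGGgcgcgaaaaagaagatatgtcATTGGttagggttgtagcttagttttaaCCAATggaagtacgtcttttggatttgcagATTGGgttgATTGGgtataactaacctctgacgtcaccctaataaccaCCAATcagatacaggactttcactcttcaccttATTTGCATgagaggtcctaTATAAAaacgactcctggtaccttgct

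H4C8 holds none of the 4 motifs in its window, whereas H2BC12 holds a TATA box, CCAAT boxes and the octamer, as H2BC3 does. Of the 55 members, 49 had a promoter in the table. CCAAT stood in 87.8% of them against 32.0% of all 35116 promoters, TATAAA in 69.4% against 10.7%, ATTTGCAT in 46.9% against 1.63% and AAACACA in 10.2% against 4.82%. The octamer was found before 10 of 13 H2A and 13 of 16 H2B genes and before none of the H1, H3 and H4 genes, AAACACA before 5 of 5 H1 genes and no other member, and CCAAT before 3 of 9 H4 genes. A match is a description, not a bound site.

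The deposited values are log2 levels from RMA16 normalization, done for each line separately, so levels are set side by side between lines as a description only. The medians of the PC3 arrays ran from 6.94 to 7.05 and those of the DU145 arrays from 6.51 to 6.67, and replicate arrays correlated with r from 0.991 to 0.998 across features. Among fixed cell type markers the keratins KRT8 and KRT18 lay at percentiles from 96.95 to 99.76 of all genes, the epithelial surface genes EPCAM and CDH1 at 58.69 and 39.76 in PC3 and at 81.68 and 84.85 in DU145, PTPRC, the pan-leukocyte marker, and the stromal genes DCN and LUM below percentile 6, and the endothelial genes PECAM1, CDH5 and VWF below percentile 27. CD68, a macrophage marker also made by other cells, stood at percentiles 90.2 and 93.4, and KLK3, made by androgen-responsive prostate cells, at 29.3 and 23.2. COL1A1 and KDR, of the stromal and endothelial lists, reached percentiles 69.6 and 79.0 in PC3, and 58.4 and 17.5 in DU145. The other stromal genes COL3A1, COL1A2 and PDGFRB stood at 44.1, 38.55 and 28.6 in PC3 and at 43.6, 40.3 and 27.3 in DU145. In each line 45 of the 55 members lay above percentile 20 of mean level. At or above the median gene stood 29 members in PC3 and 32 in DU145. Near-identical coding sequences mean that a feature can pick up a neighbour's messenger, so values of single members are less certain than their unique symbols make them look.

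In PC3 cells the miR-224 mimic was followed by lower levels of most of the family. Against the scrambled mimic 31 of 55 members fell and none rose, where 4.65% of all genes tested fell and 12.1% rose. The median log2 difference over the 55 members was -0.37, against -0.01 over all genes, and 50 of the 55 differences were below 0. The falls ran from -0.25 ± 0.07 for H4C13 to -1.24 ± 0.13 for H2BC3, a 2.36-fold lower level. Changes are log2 differences ± standard error from limma, and a gene passed at an adjusted p under 0.05 over all 18377 genes. With the scrambled and untransfected arrays pooled, both miR-224 arrays lay below all 4 control arrays in 38 of 55 members, against 11.8% of all genes, and above them in 1 member, H4C8, against 12.6% of all genes. The count of 31 was 23 without PC3 miR-224 replicate b, its lowest value with 1 array left out, and 21 of the 31 kept their calls whichever array was left out. The calls of H1-4, H2AC4, H2AC6, H2AC16, H2BC4, H2BC14, H3C11 and H4C13 were lost without miR-224 replicate b and those of H2AC12, H4C13 and H4C16 without miR-224 replicate a, and some of these without other arrays too, with adjusted p from 0.0507 to 0.442.

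**Figure D1:**
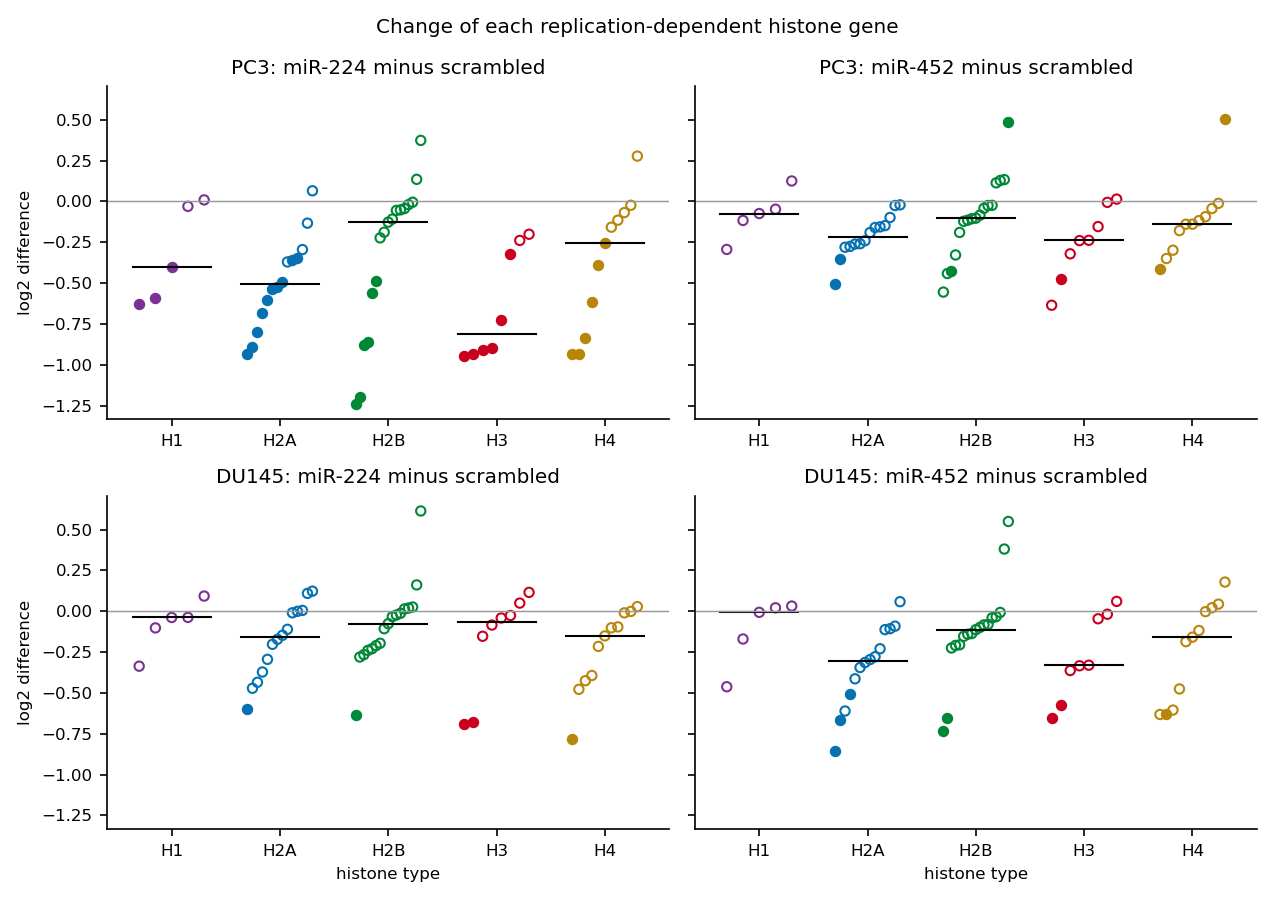
Log2 difference from the scrambled mimic of each of the 55 members, by histone type, for each mimic and line. Filled points passed the test, open points did not, and bars are medians. The H3 genes in PC3 with miR-224 have the lowest median, -0.81, and 6 of the 8 are filled.

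Of the H3 genes, which encode the core histone most studied for its modified tail, 6 of 8 fell in PC3 with miR-224 (median -0.81). H3C2 lay at 11.39 and 11.43 in the untransfected arrays, 11.30 and 11.30 with the scrambled mimic and 10.60 and 10.10 with miR-224. H3C7 lay at 8.73 and 8.73, at 8.68 and 8.63, and at 7.77 and 7.67 in the same order, and H3C1 at 9.05 and 9.30, 8.76 and 8.86, and 8.10 and 7.72. In these genes the miR-224 arrays were the lowest and did not overlap the controls. The differences from the scrambled mimic were -0.95 ± 0.13 for H3C2 (adjusted p = 0.000683), -0.93 ± 0.08 for H3C7 (adjusted p = 4.56e-05), -0.91 ± 0.18 for H3C3, -0.90 ± 0.12 for H3C1, -0.72 ± 0.09 for H3C10 and -0.32 ± 0.08 for H3C11. H3C8 and H3C12, at levels near 6 on the log2 scale, did not pass, with -0.20 and -0.24.

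Histone H4, the partner of H3 in the core tetramer, had 6 falls in 11 genes (median -0.25). H4C2 fell from 9.44 and 9.40 with the scrambled mimic to 8.59 and 8.39 with miR-224, and H4C3 from 11.95 and 12.07 to 11.29 and 10.86. The untransfected arrays stood higher still, at 9.68 and 9.74 for H4C2 and 12.11 and 12.22 for H4C3. Both differences from the scrambled mimic were -0.93, with standard errors of 0.09 and 0.12. H4C5 fell by 0.84 ± 0.11, H4C1 by 0.61 ± 0.09, H4C16, a single gene far from the clusters on chromosome 12, by 0.39 ± 0.08, and H4C13 by 0.25 ± 0.07. H4C4, H4C6, H4C7 and H4C9 did not pass, with differences from -0.16 to -0.02, nor did H4C8, with 0.28 (adjusted p = 0.0593).

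Of the H2A genes 10 of 14 fell (median -0.51) and of the H2B genes 6 of 17 (median -0.13). The H2B genes split: H2BC3 fell by 1.24 ± 0.13 (adjusted p = 0.000181), H2BC7 by 1.20 ± 0.18, H2BC9 by 0.88 ± 0.13, H2BC13 by 0.86 ± 0.10, H2BC14 by 0.56 ± 0.12 and H2BC4 by 0.49 ± 0.13, while the other 11 lay between -0.22 and 0.37 and did not pass. H2BC3 stood at 9.15 and 9.22 in untransfected cells, 8.89 and 9.13 with the scrambled mimic, 7.98 and 7.56 with miR-224 and 8.48 and 8.65 with miR-452. H2BC7 stood at 11.18 and 11.20, 11.02 and 11.21, 10.25 and 9.59, and 10.39 and 10.74. The miR-224 arrays were the lowest in both genes, the miR-452 arrays came between, and the 2 miR-224 arrays of H2BC7 differed by more than those of H2BC3. Among the H2A genes H2AC13 fell by 0.94 ± 0.12, H2AC14 by 0.89 ± 0.11, H2AC21 by 0.80 ± 0.16, H2AC15 by 0.69 ± 0.08, H2AC8 by 0.60 ± 0.09, H2AC20 by 0.53 ± 0.10, H2AC16 by 0.52 ± 0.12, H2AC4 by 0.49 ± 0.10, H2AC6 by 0.36 ± 0.11 and H2AC12 by 0.35 ± 0.11. H2AC1, H2AC11, H2AC17 and H2AC25 did not pass, with differences from -0.37 to 0.07. H2AC13 stood at 9.96 and 10.25 untransfected, 10.18 and 10.09 scrambled, and 9.36 and 9.04 with miR-224.

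Of the 5 linker histone genes H1-2, H1-3 and H1-4 fell. H1-2 stood at 9.48 and 9.51 untransfected, 9.48 and 9.44 scrambled, 8.98 and 8.70 with miR-224 and 9.43 and 9.35 with miR-452. The miR-224 arrays were the lowest, and the miR-452 arrays lay just under the lowest control array. Its difference from the scrambled mimic was -0.63 ± 0.10 (adjusted p = 0.00126). H1-3 went from 8.72 and 8.66 to 8.12 and 8.09 (-0.59 ± 0.08), and H1-4, which had values above 12.7 on every PC3 array, from 13.20 and 13.21 to 12.88 and 12.72 (-0.40 ± 0.08). H1-1 and H1-5 lay between 5.59 and 6.09 in PC3 and did not pass, with -0.03 and 0.01.

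The 2 miR-224 arrays of PC3 were not equally low: replicate b lay below replicate a in 42 of 55 members, with a median difference of 0.13. Relative to the mean of the untransfected arrays the median over the members was -0.39 and -0.53 on the miR-224 arrays, -0.21 and -0.20 on the miR-452 arrays and -0.05 and -0.07 on the scrambled arrays, while the median over all genes stayed between -0.03 and 0.04. Small nuclear and nucleolar RNA genes, of which 215 had a symbol of their own and whose transcripts also lack a poly(A) tail, moved the same way, with medians of -0.23 and -0.41 on the miR-224 arrays. Of them 59 fell and 6 rose with miR-224 against the scrambled mimic, where 4.65% of all genes fell and 12.1% rose. Their median was -0.17, and far fewer of them fell without miR-224 replicate b. The part that the uptake of RNA without a tail had in the result was not tested. In a bulk sample fewer cells in S phase and less histone messenger in each cell cannot be told apart.

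**Figure D2:**
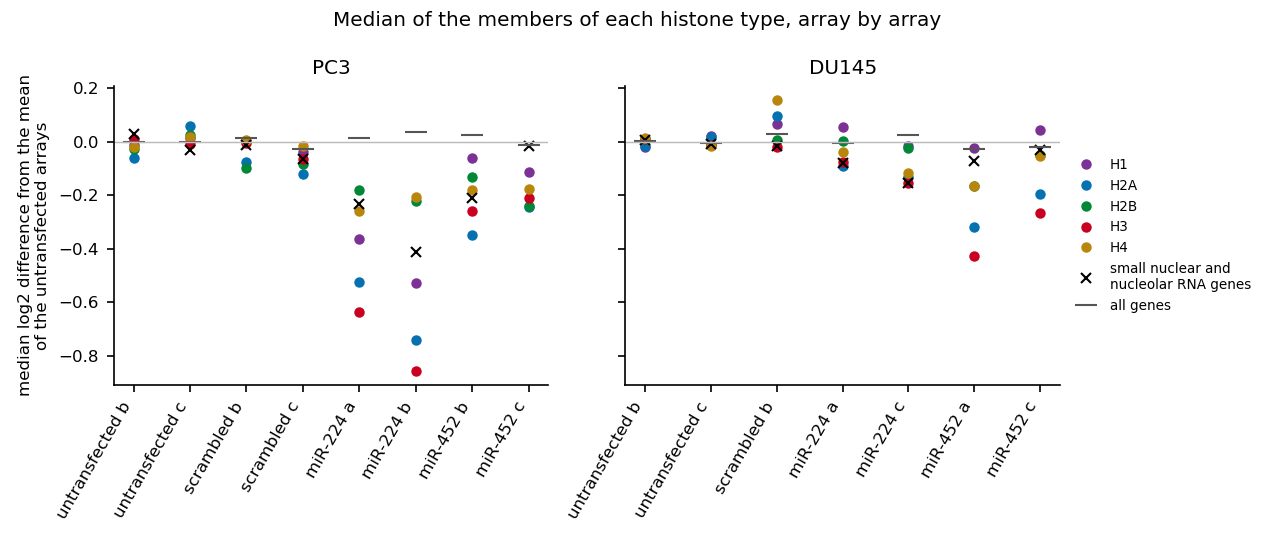
Median log2 difference of the members of each histone type from the mean of the untransfected arrays, for every array (points), with the median of 215 small nuclear and nucleolar RNA genes (crosses) and of all genes (bars). The H3 median reaches -0.86 on a miR-224 array of PC3 and -0.43 on a miR-452 array of DU145.

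Level and change went together in PC3. Of the 29 members at or above the median gene level 23 fell with miR-224 against the scrambled mimic (median -0.63), and of the 26 under it 8 did (median -0.18). Values of weakly expressed genes are compressed on this scale, so a missing call there does not show that the gene kept its level.

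Against untransfected PC3 cells the miR-224 mimic gave 31 falls and 2 rises among the 55 members, where 6.85% of all genes fell and 2.84% rose. The median was -0.45, against 0.03 over all genes. H2BC3 fell by 1.42 ± 0.13, a 2.67-fold lower level (adjusted p = 0.000121), H2BC7 by 1.27 ± 0.18, H3C1 by 1.26 ± 0.12, H4C2 by 1.22 ± 0.09, and H4C3, H3C3 and H2BC13 by 1.08 each. H4C8 rose by 0.66 ± 0.09 and H2BC12 by 0.36 ± 0.10. H3C3 lost its call without PC3 untransfected replicate b (adjusted p = 0.0537). H2BC12 lost its call without either untransfected array, miR-224 replicate a or either miR-452 array, with adjusted p from 0.0564 to 0.323. This comparison shares its miR-224 arrays with the one above and is not a second experiment.

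With the miR-452 mimic PC3 cells had smaller differences. Against the scrambled mimic 5 members fell and 2 rose, where 2.33% of all genes fell and 2.89% rose, with a median of -0.14 against 0.01 over all genes and 48 of 55 differences below 0. H2AC14 fell by 0.51 ± 0.11, H3C1 by 0.48 ± 0.12, H2BC13 by 0.42 ± 0.10, H4C2 by 0.41 ± 0.09 and H2AC15 by 0.35 ± 0.08, and H4C8 rose by 0.50 ± 0.09 (adjusted p = 0.00786) and H2BC12 by 0.49 ± 0.10. H3C1 stood at 8.28 and 8.38 with miR-452, between the miR-224 and the scrambled arrays. H3C3 had replicates far apart, at 6.88 and 7.66 with miR-452, and did not pass, with -0.64. Both miR-452 arrays lay below all 4 control arrays in 30 members, against 13.7% of all genes, and above them in 2, H4C8 and H2BC12, against 10.9%. None of the 55 passed without PC3 miR-452 replicate b. Without scrambled replicate b 1 passed, without scrambled replicate c 3, and without either untransfected array or miR-452 replicate c 4. Each of the 7 members lost its call without 1 or more arrays: H4C8 without miR-452 replicate b (adjusted p = 0.0764), H2BC12 and H4C2 without scrambled replicate b or either miR-452 array (0.0586 to 0.13), H2AC15 without any scrambled or miR-452 array (0.0534 to 0.216), H2AC14 and H2BC13 without any untransfected or scrambled array or miR-452 replicate b (0.0513 to 0.238), and H3C1 without any untransfected, scrambled or miR-452 array (0.0604 to 0.211).

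Against untransfected PC3 cells miR-452 gave 23 falls and 3 rises, where 14.1% of all genes fell and 8.12% rose, with a median of -0.19. H3C1 fell by 0.84 ± 0.12, H3C3 by 0.81 ± 0.18, H4C2 by 0.70 ± 0.09, and H2BC13, H2AC14 and H2BC7 by 0.64, 0.63 and 0.63. H4C8 rose by 0.88 ± 0.09, H2BC12 by 0.72 ± 0.10 and H1-5 by 0.33 ± 0.09. H1-2 and H1-4, which fell with miR-224, did not pass here, with -0.10 and -0.09. The count of 26 became 17 (13 falls) with the arrays made to share 1 distribution again, 17 (14 falls) with each array centred on its median, 7 without untransfected replicate b, 13 without untransfected replicate c, 10 without miR-452 replicate b and 16 without miR-452 replicate c. H1-5 and H2BC7 lost their calls without either untransfected array or miR-452 replicate b (adjusted p from 0.089 to 0.171), H3C3 without either untransfected array (0.0508 and 0.108) and H2AC14 without untransfected replicate b (0.0582).

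Set directly against each other in PC3, 25 members were lower with miR-224 than with miR-452 and none was higher, where 5.99% of all genes were lower and 12.5% higher. The median was -0.26, against -0.02 over all genes. H2BC3 was lower by -0.80 ± 0.13 (adjusted p = 0.00132), H3C10 by -0.72 ± 0.09, H3C7 by -0.70 ± 0.08 (adjusted p = 0.000131), H2AC21 by -0.70 ± 0.16, H2AC13 by -0.66 ± 0.12 and H2BC7 by -0.64 ± 0.18. H3C10 stood at 8.12 and 7.93 with miR-224 and 8.76 and 8.72 with miR-452, the latter within the range of the controls, 8.53 to 8.83. Of the H1 genes H1-2 (-0.56), H1-4 (-0.35) and H1-3 (-0.30) passed, and H1-3 and H1-4 did not without miR-224 replicate b or miR-452 replicate c, nor H1-3 without miR-224 replicate a (adjusted p from 0.0792 to 0.171). The count was 10 without PC3 miR-224 replicate b and 12 without miR-452 replicate c. H2AC21 lost its call without each of these (adjusted p = 0.0826 and 0.0864), and H2BC7 without these or either untransfected array (0.0554 to 0.234).

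Few members passed between scrambled and untransfected PC3 cells. With the scrambled mimic 2 members fell and 1 rose, where 10.9% of all genes fell and 3.32% rose, with a median of -0.04. H2BC19P fell by 0.45 ± 0.13 and H4C2 by 0.29 ± 0.09, and H4C8 rose by 0.38 ± 0.09. The other 52 did not pass, which does not show that they kept their level. None passed without untransfected replicate b or scrambled replicate c, and 1 without untransfected replicate c. H4C8 lost its call without either untransfected array or scrambled replicate c (adjusted p from 0.0849 to 0.0933), H2BC19P without untransfected replicate b or scrambled replicate c (0.238 and 0.33), and H4C2 without any untransfected, scrambled or miR-452 array (0.0588 to 0.207).

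H4C8 and H2BC12, each by the feature of its own symbol, went against the family in PC3. H4C8 stood at 10.66 and 10.48 in untransfected cells, 10.94 and 10.95 with the scrambled mimic, 11.29 and 11.16 with miR-224 and 11.52 and 11.38 with miR-452, and the 4 groups did not overlap. H2BC12 stood at 11.57 and 11.50, 11.69 and 11.83, 12.05 and 11.75, and 12.24 and 12.26, where the scrambled and miR-224 arrays overlapped and the miR-452 arrays were the highest. A feature that names H2BC12 together with H2BC12L, H2BC17 and H2BC5 went the other way with miR-224. Against the scrambled mimic it fell with miR-224 (-0.36) and did not pass with miR-452 (0.11). H2BC12 is known to make a polyadenylated messenger besides the stem-loop form. Its gene model in RefSeq is long (chr6:27138293-27146858, minus strand) and holds H4C9 (chr6:27139282-27139678, plus strand). H4C9 did not pass, with -0.11 with miR-224 and -0.14 with miR-452 against the scrambled mimic. Long models are also given for H2BC4 (chr6:26113170-26123926), which fell with miR-224 against the scrambled mimic, and H2BC5 (chr6:26158121-26171349), which did not pass. H4C8 closes the largest group of genes on chromosome 6 and, as shown above, its promoter has none of the 4 motifs searched. Of 9 H4 promoters 5 held TATAAA (55.6%, against 10.7% of all promoters) and 3 held CCAAT (33.3%, against 32.0%). None of the 9 held the octamer or AAACACA.

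**Figure D3:**
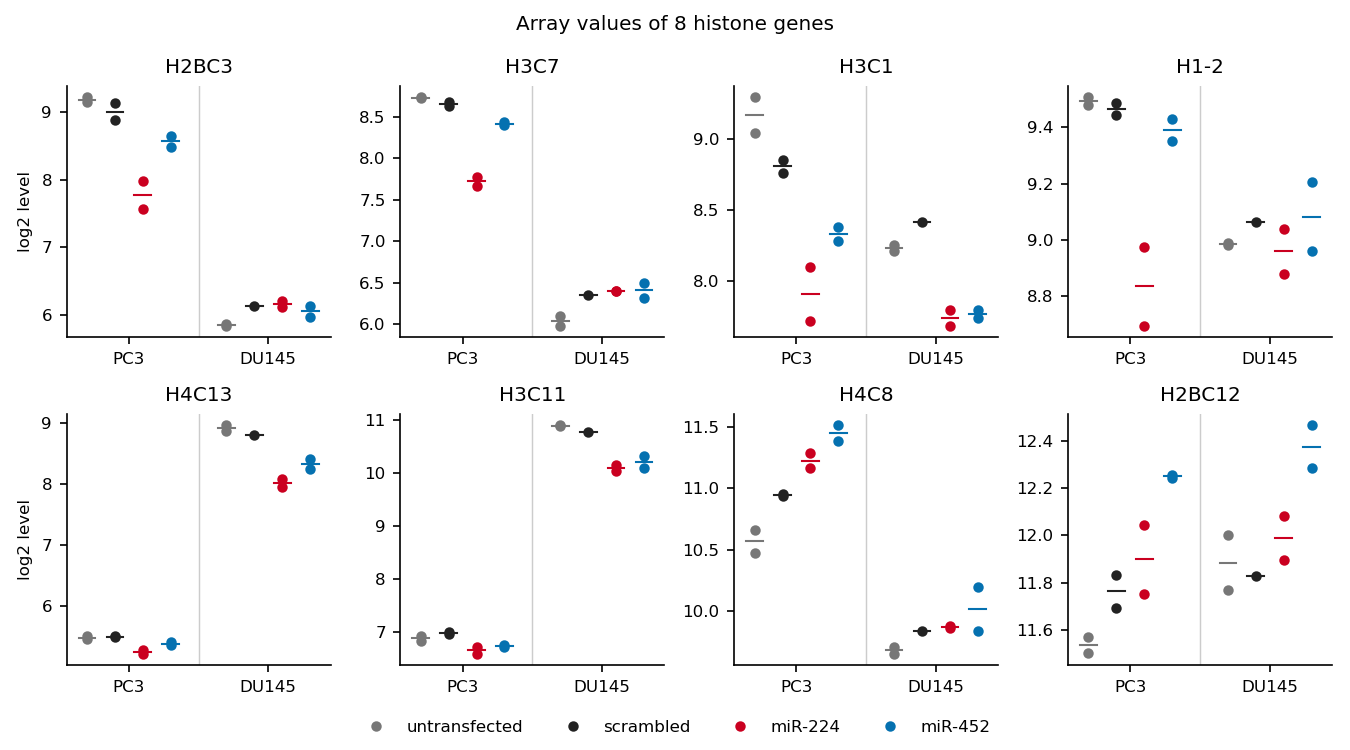
Log2 level of 8 members on every array (points) with group means (bars), by treatment, in PC3 and DU145. Lines were normalized separately, so heights are comparable within a line. H2BC3, H3C7, H3C1 and H1-2 were lowest with miR-224 in PC3, H4C13 and H3C11 with miR-224 in DU145, and H4C8 and H2BC12 had their highest means with miR-452 in both lines.

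In DU145 cells 5 of 55 members fell and none rose with miR-224 against the scrambled mimic, where 1.31% of all genes fell and 0.631% rose, with a median of -0.10 against -0.01 over all genes. H4C13 stood at 8.87 and 8.97 in untransfected cells, 8.80 on the scrambled array, 8.09 and 7.96 with miR-224 and 8.24 and 8.41 with miR-452. H3C11 stood at 10.89 and 10.90, 10.78, 10.15 and 10.04, and 10.10 and 10.32, and H3C1 at 8.21 and 8.25, 8.42, 7.80 and 7.69, and 7.74 and 7.80. In these 3 genes the arrays of either mimic lay below all controls. The differences between miR-224 and the scrambled array were -0.78 ± 0.12 for H4C13 (adjusted p = 0.0138), -0.69 ± 0.12 for H3C11, -0.68 ± 0.11 for H3C1, -0.63 ± 0.11 for H2BC13 and -0.60 ± 0.10 for H2AC4. The scrambled group rests on 1 array, and its error was borrowed from the groups with 2. No more than 2 members passed when either untransfected array was left out (2 each) or either miR-224 array (1 each, which without replicate c was a rise), 9 passed without either miR-452 array, and 8 with trend and robust moderation in limma. H4C13 lost its call without miR-224 replicate c (adjusted p = 0.0894), H3C1 without either miR-224 array (0.0595 and 0.101), and H3C11, H2BC13 and H2AC4 without any untransfected or miR-224 array (0.0529 to 0.131).

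Against untransfected DU145 cells miR-224 gave 5 falls and 2 rises, where 15.5% of all genes fell and 5.44% rose, so the falls among members are no result about the family here. The median was -0.07, against 0.02 over all genes. H4C13 fell by 0.90 ± 0.10 (adjusted p = 0.000786), H3C11 by 0.80 ± 0.10 (adjusted p = 0.00151), H2BC7 by 0.80 ± 0.17, H3C1 by 0.49 ± 0.09 and H1-5 by 0.42 ± 0.10. H1-5 went from 9.94 and 10.11 to 9.58 and 9.62. H3C7 rose by 0.36 ± 0.09 and H2BC3 by 0.31 ± 0.09, both from levels near 6, the range in which values are compressed, and H3C7 stood at 6.09 and 5.98 untransfected, 6.35 on the scrambled array and 6.40 and 6.40 with miR-224. In H2BC3 the scrambled array, at 6.14, lay between the miR-224 arrays, at 6.12 and 6.20. Both miR-224 arrays lay below the 3 control arrays in 22 members, against 18.7% of all genes, and above them in 4 (H1-1, H2AC1, H3C7 and H4C8), against 13.1%. The count of 7 was 2 without either untransfected array or miR-224 replicate c, 4 without miR-224 replicate a, 17 without either miR-452 array, 17 with the arrays of the 2 groups alone and 11 with trend and robust moderation. H1-5, H2BC3 and H3C7 lost their calls without any untransfected or miR-224 array (adjusted p from 0.0666 to 0.226), and H2BC7 and H3C1 without either untransfected array or miR-224 replicate c (0.0555 to 0.0879).

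With miR-452 in DU145 8 of 55 members fell against the scrambled mimic and none rose, where 1.52% of all genes fell and 0.577% rose. The median was -0.16, against -0.02 over all genes, and 46 of 55 differences were below 0. H2AC4 fell by 0.86 ± 0.10, a 1.81-fold lower level (adjusted p = 0.0094), H2BC13 by 0.74 ± 0.11, H2AC13 by 0.66 ± 0.115, H2BC14 and H3C1 by 0.65 each, H4C3 by 0.63 ± 0.11, H3C11 by 0.57 ± 0.12 and H2AC11 by 0.51 ± 0.10. H2AC4 stood at 7.34 and 7.43 untransfected, 7.90 on the scrambled array and 7.004 and 7.08 with miR-452, so the single scrambled array was the highest. Among the types H3 had the lowest median (-0.33), and H1 was near 0 (-0.01). The count was 3 with each array centred on its median, 13 with all 15 arrays in 1 fit, 16 with trend and robust moderation, 2 without either untransfected array and 13 without miR-452 replicate c. H2AC4 and H2BC13 kept their calls with each array left out. H2AC13, H2BC14, H3C1 and H4C3 lost theirs without either untransfected array (adjusted p = 0.063, 0.0762, 0.055 and 0.0715), and H3C11 and H2AC11 without any untransfected or miR-224 array (0.0707 to 0.12).

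Against untransfected DU145 cells miR-452 gave 17 falls and 4 rises, where 19.9% of all genes fell and 8.31% rose, with a median of -0.18. H2BC14 fell by 0.85 ± 0.10 (adjusted p = 0.00185), from 9.39 and 9.37 to 8.43 and 8.63, with the scrambled array at 9.18 and the miR-224 arrays at 9.20 and 9.02. H3C11 fell by 0.69 ± 0.10, H2BC7 by 0.63 ± 0.17, H4C13 by 0.59 ± 0.10, H1-5 by 0.54 ± 0.10 and H2AC17 by 0.53 ± 0.10. H2BC12 rose by 0.49 ± 0.11, H3C7 by 0.37 ± 0.09, H4C5 by 0.33 ± 0.10 and H2BC21 by 0.28 ± 0.09. H3 had 5 falls and 1 rise in 8 genes. Both miR-452 arrays lay below the 3 control arrays in 28 members, against 20.8% of all genes, and above them in 3 (H2AC1, H2BC12 and H4C8), against 10.4%, and replicate a lay below replicate c in 43 of 55. The count of 21 was 4 without either untransfected array, 11 without miR-452 replicate a and 12 (7 falls) with the arrays made to share 1 distribution again. Of the 21 only 2, H2BC14 and H3C11, kept their calls with each array left out. H2BC7, H3C7 and H4C5 lost theirs without either untransfected array or miR-452 replicate a (adjusted p from 0.0736 to 0.236), H2BC21 without any untransfected or miR-224 array (0.059 to 0.218), H2AC17 and H2BC12 without untransfected replicate b (0.0693 and 0.136), and H1-5 and H4C13 without untransfected replicate c (0.0758 and 0.0515).

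Between the mimics in DU145 1 member passed, H2BC14, which was higher with miR-224 than with miR-452 by 0.58 ± 0.10 (adjusted p = 0.011), where 3.53% of all genes were higher and 2.38% lower. The median was 0.06. It lost its call without miR-224 replicate a (adjusted p = 0.0865), when none passed, and 6 members were called without miR-452 replicate c. Other settings gave 2 calls (genes under percentile 20 of level left out, and the arrays made to share 1 distribution again) or 4 (trend and robust moderation, and all 15 arrays in 1 fit). The scrambled array of DU145 stood above the untransfected arrays in H2AC4 by 0.51 ± 0.10 and in H2BC21 by 0.49 ± 0.11, the 2 members that passed there, and none fell, where 2.6% of all genes rose and 9.22% fell. Both calls were lost without either untransfected array (adjusted p from 0.111 to 0.149), and 12 members passed without either miR-452 array. With the arrays made to share 1 distribution again, and with all 15 arrays in 1 fit, 5 passed.

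The change with miR-224 differed between the lines in 24 members. Measured from untransfected cells it was lower in PC3 than in DU145 in 21 and higher in 3, where 0.794% of all genes were lower and 4.33% higher, with a median difference of -0.43 against -0.01 over all genes. The difference was -1.73 ± 0.17 for H2BC3 (adjusted p = 0.000222), with -1.42 in PC3 and 0.31 in DU145. For H3C7 it was -1.37 ± 0.12 (adjusted p = 6.88e-05), with -1.01 and 0.36. H3C3, H4C5, H4C2 and H2AC15 differed by -1.22, -1.14, -1.12 and -1.01. H4C13 (0.66 ± 0.12), H1-5 (0.63 ± 0.14) and H3C11 (0.58 ± 0.12) differed the other way, with falls in DU145 of 0.90, 0.42 and 0.80 and with -0.23, 0.22 and -0.22 in PC3, none of which passed there. H3C1 fell in both lines but by more in PC3, a difference lost without PC3 untransfected replicate c, PC3 miR-224 replicate b, either DU145 untransfected array or DU145 miR-224 replicate a (adjusted p from 0.0508 to 0.0997). The count was 9 without PC3 untransfected replicate c, 11 without PC3 miR-224 replicate b, and 14 without any of DU145 untransfected replicate b, untransfected replicate c and miR-224 replicate c. Without PC3 miR-224 replicate b or PC3 untransfected replicate c, among others, H1-5, H3C3 and H2AC15 lost their calls, with adjusted p from 0.0535 to 0.109 over the arrays concerned, and H3C11 did so without any of 5 arrays (PC3 untransfected replicate c, PC3 miR-224 replicate a, either DU145 untransfected array or DU145 miR-224 replicate c), with 0.0551 to 0.0965.

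**Figure D4:**
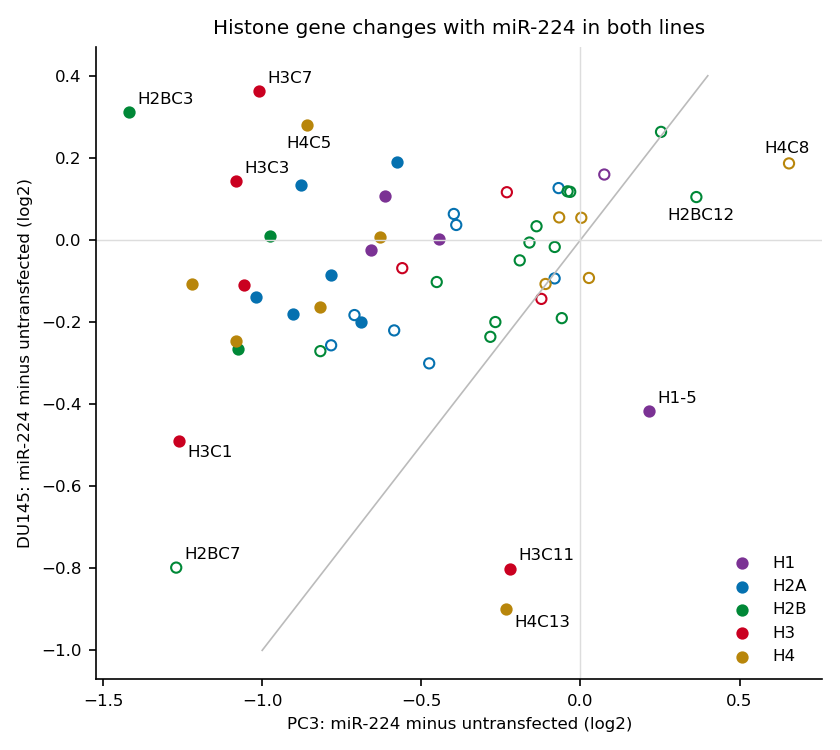
Log2 change with miR-224 against untransfected cells in PC3 (horizontal) and DU145 (vertical) for the 55 members, coloured by histone type. Filled points differed between the lines, and the grey line marks equal change. H2BC3, H3C7, H4C5 and H3C3 lie at the upper left, with falls in PC3 and values above 0 in DU145, and H3C11 and H4C13 at the bottom, with falls in DU145.

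Measured from the scrambled mimic, the miR-224 change was lower in PC3 in 6 members and higher in none, where 0.245% of all genes were lower and 0.909% higher. These were H2BC3 (-1.27 ± 0.19), H3C7 (-0.98 ± 0.13), H3C2 (-0.91 ± 0.20), H2AC14 (-0.88 ± 0.17), H4C5 (-0.83 ± 0.17) and H1-3 (-0.55 ± 0.12). In PC3 all 6 fell and in DU145 none passed, with changes between -0.04 and 0.05. The count was 2 or 3 without any of PC3 scrambled replicate b (3), scrambled replicate c (2), miR-224 replicate b (2), DU145 untransfected replicate b (3) or c (3), and DU145 miR-224 replicate a (2) or c (2), and 10 without either DU145 miR-452 array. H2BC3 and H3C7 kept their calls with each array left out. H1-3, H3C2, H2AC14 and H4C5 lost theirs without PC3 scrambled replicate c, PC3 miR-224 replicate b or either DU145 miR-224 array, and some of them without further arrays, with adjusted p from 0.0504 to 0.165. For miR-452 measured from untransfected cells 5 members were lower in PC3 and 4 higher, where 0.68% of all genes were lower and 2.2% higher. H3C3 (-1.08 ± 0.24), H2BC3 (-0.82 ± 0.17), H4C5 (-0.70 ± 0.15), H3C7 (-0.69 ± 0.12) and H1-3 (-0.50 ± 0.11) were lower, and H1-5 (0.88 ± 0.14), H3C11 (0.55 ± 0.12), H4C13 (0.49 ± 0.12) and H3C8 (0.48 ± 0.12) higher. The count of 9 became 1 with the arrays of each line made to share 1 distribution again, and 2 or 3 without any of PC3 untransfected replicate b (2) or c (3), PC3 miR-452 replicate b (3), DU145 untransfected replicate b (2) or c (3), or DU145 miR-452 replicate a (3). H1-5 and H3C7 kept their calls with each array left out, and the other 7 lost theirs without DU145 untransfected replicate b or DU145 miR-452 replicate a, and most of them without further arrays, with adjusted p from 0.0511 to 0.23. For miR-452 measured from the scrambled mimic no member passed in limma, where 0.147% of all genes were lower and 0.473% higher. There 1 member passed without PC3 miR-452 replicate c.

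The members that differed between lines were often members with a low level in 1 line. In untransfected cells H2BC3 stood at 9.15 and 9.22 in PC3 and 5.84 and 5.86 in DU145, H3C7 at 8.73 and 8.73 against 6.09 and 5.98, H4C5 at 9.54 and 9.60 against 5.29 and 5.43, H1-3 at 8.74 and 8.70 against 6.07 and 6.11, and H3C3 at 8.09 and 8.07 against 5.78 and 5.66. On the other side H1-5 stood at 5.70 and 5.66 in PC3 and 9.94 and 10.11 in DU145, H3C11 at 6.91 and 6.83 against 10.89 and 10.90, and H4C13 at 5.51 and 5.46 against 8.87 and 8.97. Of the 21 members with the lower miR-224 change in PC3, 9 were under the median gene level in DU145 and 5 in PC3, and of the 3 with the higher change all 3 were under it in PC3. H2AC20, H3C2 and H4C3, above the median gene level in both lines, differed by -0.77, -0.95 and -0.84. H2AC20 stood at 12.11 and 12.24 in untransfected PC3 and at 10.63 and 10.66 in DU145. The difference of H3C2 was lost without PC3 untransfected replicate c (adjusted p = 0.0566) and that of H4C3 without this or any of 4 other arrays (0.0518 to 0.0766). Measured from the scrambled mimic, H3C2 passed and H2AC20 and H4C3 did not. Of the 6 members that passed there, 5 were under the median gene level in DU145 and 1 in PC3. The part of low level in the line differences was not tested.

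The falls with miR-224 in PC3 were also counted by groups of neighbouring genes. The HIST1 cluster holds 48 members on chromosome 6 (GRCh38.p14, 25726063 to 27893891), HIST2 4 and HIST3 2 on chromosome 1, and HIST4 is H4C16 alone. Against the scrambled mimic 28 of 48 HIST1 members fell, 2 of 4 of HIST2 (H2AC20 and H2AC21), none of 2 of HIST3 (-0.29 and -0.22) and H4C16. Gaps over 200 kb split HIST1 into 4 groups. The group from H1-1 to H4C8 (26017032 to 26285534) had 18 falls in 28 genes with a median of -0.54, and the group from H2BC13 to H2BC17 (27807479 to 27893891) 9 in 13 with -0.52. The group from H2BC11 to H2AC12 (27132316 to 27147562) had 1 in 5 with a median of -0.0046, and the pair H2AC1 and H2BC1 (25726063 to 25727345), at levels between 5.44 and 5.81 in PC3, none in 2. With miR-452 in DU145 3 of 28 genes fell in the group from H1-1 to H4C8, 1 of 5 in that from H2BC11 to H2AC12 (H2AC11) and 4 of 13 in that from H2BC13 to H2BC17, where the median was -0.46 and all 13 differences were below 0. Differences between groups of genes were not tested.

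**Figure D5:**
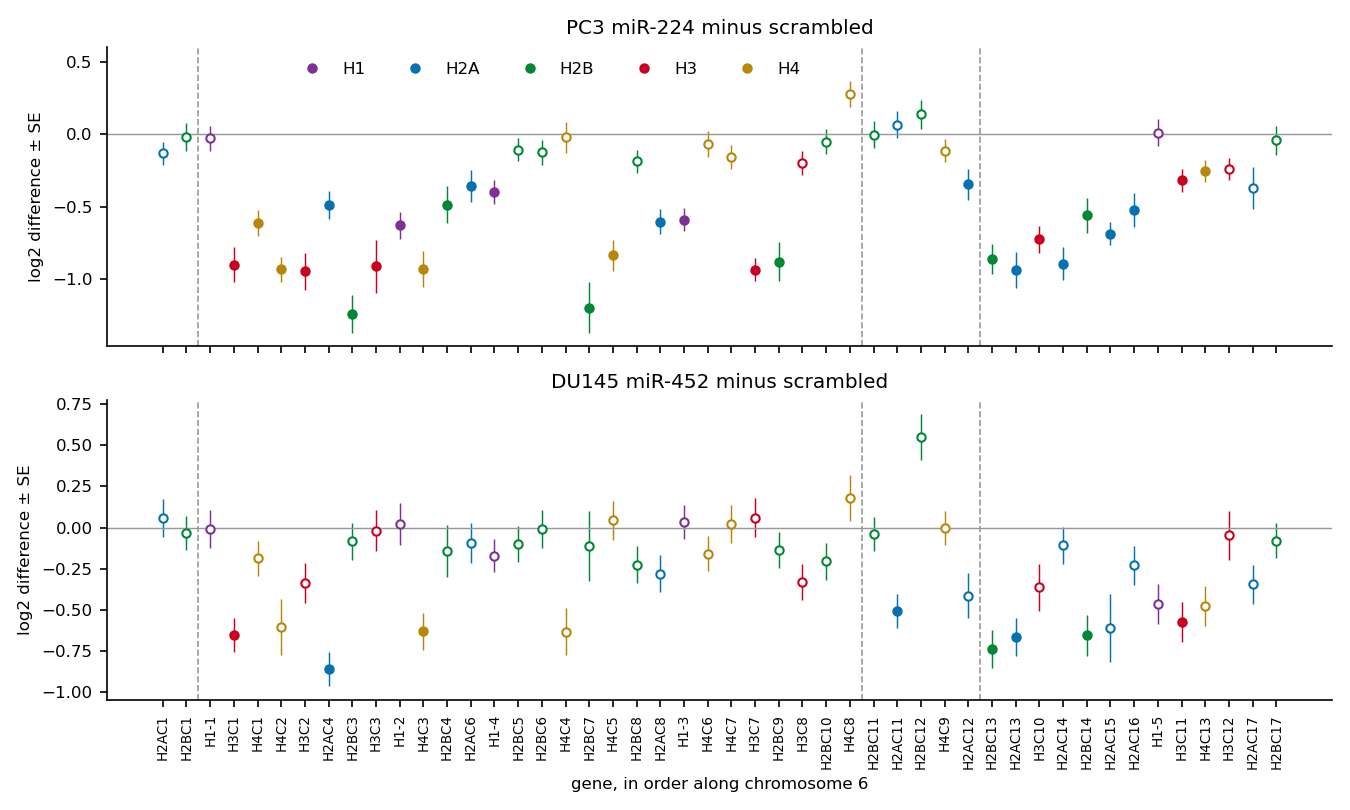
Log2 difference ± standard error from the scrambled mimic for the 48 HIST1 members in their order along chromosome 6, for miR-224 in PC3 (top) and miR-452 in DU145 (bottom). Filled points passed the test, colours give the histone type and dashed lines the gaps over 200 kb. The third group from the left has 1 filled point in each panel.

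H2A and H2B genes often stand head to head over a shared promoter of about the length shown for H2AC13, whose window reaches the start of H2BC13, 244 bases away. There were 9 such pairs within 400 bases among the members whose strand was known. With miR-224 in PC3 both genes fell in 3 pairs: H2AC13 (-0.94) with H2BC13 (-0.86), H2AC14 (-0.89) with H2BC14 (-0.56), and H2AC6 (-0.36) with H2BC4 (-0.49). In 2 pairs the H2A gene fell and its partner did not pass: H2AC20 (-0.53) beside H2BC21 (-0.05), and H2AC8 (-0.60) beside H2BC8 (-0.19). In 4 pairs neither passed. H2AC12 (chr6:27147106-27147562) had no known strand, so its place next to the start of H2BC12 was not counted as a pair. There H2AC12 fell and H2BC12 did not pass. With miR-452 against untransfected DU145 cells H2BC14 fell (-0.85) while its partner H2AC14, at most 5.14 on any DU145 array, had -0.24, and H2AC13 and H2BC13 both fell by 0.37, calls lost without either untransfected array or miR-452 replicate a (adjusted p from 0.0678 to 0.203). Motif letters hardly separated the members that fell with miR-224 in PC3 from those that did not pass: CCAAT stood before 88.9% of 27 and 86.4% of 22, TATAAA before 74.1% and 63.6%, and the octamer before 44.4% and 50%.

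Features that name several genes stayed outside the member count, and 20 of them name at least 1 histone gene of the family. They gave values for genes with no feature of their own, such as H3C13, H3C14 and H3C15, near-identical copies in the HIST2 cluster. In PC3 with miR-224 16 of the 20 had a difference from the scrambled mimic below 0, with a median of -0.52 and a range from -1.24 to 0.17. The lowest were the 2 features for H4C11 and H4C12 (-1.24 and -1.10), followed by those for H3C10 with H2AC13 (-0.98) and H3C4 with H2AC7 (-0.96), and 4 features of H3C13 to H3C15 lay between -0.87 and -0.84. The 2 features for H4C14 and H4C15 lay above 0, at 0.16 and 0.17, and did not pass. The feature for H3C11 with H3C6 lacked the falls of H3C11's own feature with miR-224. Against the scrambled mimic it had 0.11 in PC3 and -0.01 in DU145, and against untransfected DU145 cells 0.04. It did not pass in any of these. Against untransfected DU145 cells 12 of the 20 were lower with miR-224 (median -0.02) and 14 with miR-452 (median -0.04). There H2BC15 with H2AC15 (-0.31) and H3C4 with H2AC7 (-0.41) passed with miR-452. The single DU145 scrambled array was itself high in these features, with a median of 0.17 above untransfected cells and 4 of the 20 lower. In DU145 17 of the 20 were below the scrambled array with either mimic, and none passed, with medians of -0.16 for miR-224 and -0.22 for miR-452.

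Genes that work with the family were followed through lists. Of 27 measured S phase genes, which share their timing with histone synthesis, 15 fell and none rose with miR-224 against the scrambled mimic in PC3, where 4.65% of all genes fell, with a median of -0.28, and 9 fell without miR-224 replicate a. RRM2, a subunit of the enzyme that makes deoxynucleotides, fell by 0.92 ± 0.08, TYMS, which makes thymidylate, by 0.65, MCM2 of the replicative helicase by 0.61 and PCNA, the sliding clamp, by 0.50. With miR-452 none of the 27 fell and 3 rose (CDC25A 0.42, CCNE2 0.36, MCM6 0.33), where 2.89% of all genes rose, and all 3 calls were lost without either miR-452 array. The scrambled mimic against untransfected PC3 cells gave 16 falls in this list (median -0.29), against 10.9% of all genes and 2 of the 55 histone genes, and 2 falls without untransfected replicate b. With miR-224 against untransfected cells 24 fell (median -0.62), against 6.85% of all genes. In DU145 12 of the 27 fell with miR-224 and 14 with miR-452 against untransfected cells, where 15.5% and 19.9% of all genes fell, and these counts were 3 and 0 without untransfected replicate c. Against the scrambled array 2 fell with miR-224 and none with miR-452, where 1.31% and 1.52% of all genes fell.

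SLBP, the stem-loop binding protein, had -0.22 ± 0.08 with miR-224 against the scrambled mimic in PC3 and did not pass (adjusted p = 0.0891), and it was lower with miR-224 than with miR-452 by -0.41 ± 0.08 (adjusted p = 0.00436). NPAT, the coactivator that switches on histone genes in S phase, had 0.01 ± 0.09 in that comparison with the scrambled mimic. Of the 28 measured genes of histone messenger synthesis and processing 8 rose (LSM11 0.45, GON4L 0.41, TUT7 0.41, ZNF473 0.37, CPSF2 0.37, TUT4 0.34, CPSF3 0.32, ZPR1 0.28) and 2 fell (SNRPG -0.43, LSM10 -0.30), where 12.1% of all genes rose and 4.65% fell. None of the 28 rose without miR-224 replicate b or scrambled replicate c, and none fell without either miR-224 array or scrambled replicate b. LSM10 and LSM11 belong to the U7 particle that cuts the histone messenger, ZNF473 binds it and CPSF3 is the cutting enzyme. None of the 28 passed with miR-452 in PC3. Against untransfected DU145 cells 11 fell with miR-224, among them CASP8AP2 (-0.77), a protein of the histone locus body, NPAT (-0.39) and SLBP (-0.33), and 10 with miR-452, among them NPAT (-0.53), where 15.5% and 19.9% of all genes fell, and 3 and 2 did so without untransfected replicate c. CASP8AP2 fell with the scrambled mimic too, by 0.57 in PC3 and by 0.87 in DU145.

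Of 18 histone chaperones, which carry new histones to DNA, 1 rose and 1 fell with miR-224 against the scrambled mimic in PC3: ATRX rose by 0.84 ± 0.09 and NAP1L1 fell by 0.32, the latter a call lost without any scrambled or miR-224 array (adjusted p from 0.0621 to 0.168). With 12.1% of all genes rising and 4.65% falling, these counts are no result about the chaperones. ATRX was lower on the scrambled than on the untransfected arrays (-0.38). Against untransfected PC3 cells 6 fell, among them ASF1B (-0.59) and CHAF1B (-0.52), where 6.85% of all genes fell, and 2 fell without miR-224 replicate a or untransfected replicate b. Of 8 measured replication-independent variants, which are made outside S phase too, mostly from polyadenylated messengers, H3-3B (-0.68), H2AX (-0.50) and H1-10 (-0.36) fell and H2AZ1 rose (0.32) with miR-224 against the scrambled mimic, where 4.65% of all genes fell and 12.1% rose, and H2AZ1 had fallen by 0.58 from untransfected to scrambled cells. H1-10 and H2AZ1 lost their calls without either miR-224 array, among others (adjusted p from 0.0536 to 0.222). H3-3B also fell in DU145 with miR-224 (-0.84 against untransfected cells). Of the 5 members known to make polyadenylated messengers, H1-2 (-0.63) and H2AC6 (-0.36) fell with miR-224 in PC3, and H2BC5 (-0.11), H2BC12 (0.14) and H2BC21 (-0.05) did not pass. Shared features that name H2BC12 with H2BC5 (-0.36) and H2BC21 with H2BC19P and H2BC20P (-0.30) fell against the scrambled mimic. Another, naming H2BC21 with H2BC18 and H2BP1 (-0.17), did not pass.

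Genes outside the family were ranked by how closely their group means, centred within each line, followed the median of the members over the 8 groups, among the 1295 genes that varied by at least 0.5 on the log2 scale within each line. The closest were SNORD104 (r = 0.947), a nucleolar RNA, RNU5D-1 (r = 0.939) and RNVU1-15 (r = 0.915), small nuclear RNAs of the spliceosome, DPYSL2 (r = 0.929), a cytoskeletal regulator, and H3-5 (r = 0.9135), an H3 gene that the symbol rule leaves out. SNORD104 had group means of 9.64 untransfected, 9.46 scrambled, 8.06 with miR-224 and 9.19 with miR-452 in PC3, and 8.63, 9.25, 8.34 and 8.26 in DU145. RNU5D-1 had means of 8.89 untransfected and 6.61 with miR-224 in PC3. The 8 points share their libraries and normalization, and the correlations describe these arrays only.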

How the data were processed

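Total RNA of 15 samples was labelled with the Ambion WT Expression Kit and measured on the Human Gene 1.0 ST platform of Affymetrix, as stated in the labels' protocols. The deposited values are log2 levels per feature, and the series' design text states that the authors normalized each line separately with RMA16 in GeneSpring GX 11.0 and left out 1 DU145 scrambled array for poor performance. Further steps before deposit are not given in the sources used here. Of 28869 features, 19310 had 1 gene symbol in the platform annotation (19279 updated by Entrez number), 1752 several and 7807 none. Features of 1 symbol were averaged to 18377 genes. Per-line fits with limma 3.58.1 (R 4.3.3) had 4 group means, and differences between lines came from 1 fit of all 15 arrays with 8. P-values were adjusted by Benjamini-Hochberg over all genes, and called at 0.05. The script was tested on simulated data. Alternatives were quantile normalization, median centring, a level filter at percentile 20, single features, trend and robust moderation (statmod 1.5.0), other sets of arrays in the fit, a replicate block and each array left out.

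The members and the gene lists were chosen with earlier results of these data known. Named were, per comparison, up to 6 rises and 6 falls of the largest change, all H1 genes, the member of each type with the largest range, the members with polyadenylated messengers, up to 6 line differences of smallest p, and the 5 genes of most similar pattern. Other members were named after their values were seen, to account for each type. Marker lists covered epithelial, androgen-regulated, stromal, leukocyte and endothelial genes. With 2 arrays per group, and 1 in the DU145 scrambled group, the number of arrays limits the precision.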

Additional observations from a re-analysis of the deposited data

Results flagged for a closer look

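The change with a mimic differed between PC3 and DU145 by the interaction term of the 15-array fit in the members named here, up to 6 of the smallest p per contrast. With miR-224 against untransfected cells the PC3 change minus the DU145 change was -1.7286 for H2BC3, -1.3729 for H3C7, -1.1365 for H4C5, -1.1151 for H4C2, -0.7671 for H2AC20 and -0.7234 for H1-3. With miR-452 against untransfected cells it was -1.0848 for H3C3, -0.8199 for H2BC3, -0.7027 for H4C5, -0.6873 for H3C7, -0.498 for H1-3 and 0.8762 for H1-5. With miR-224 against the scrambled mimic it was -1.267 for H2BC3, -0.9841 for H3C7, -0.9054 for H3C2, -0.8834 for H2AC14, -0.8272 for H4C5 and -0.5513 for H1-3. H2BC3, H3C7, H4C5 and H1-3 appear under all 3 contrasts, which share arrays, and in untransfected DU145 cells these 4 genes had mean levels of 5.85, 6.04, 5.36 and 6.09 against a median gene level of 6.93. The part of that low level was not tested.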

How the results depend on the processing

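Of 1587 values of 94 named gene changes under other settings, 331 lost the call and 0 reversed, and of 268 medians 17 moved by more than the replicate spread and 0 reversed. The 31 PC3 calls with miR-224 against the scrambled mimic ranged from 23 to 29 with 1 array left out and from 27 to 31 otherwise. Some of these totals held rises: 2 with the level filter, 1 with trend and robust moderation and 1 without scrambled replicate b. Left-out arrays moved the other counts as follows: PC3 miR-452 against scrambled 0 to 9 and against untransfected 7 to 28, PC3 scrambled against untransfected 0 to 4, PC3 miR-224 against miR-452 10 to 25. In DU145 the ranges were 1 to 9 and 2 to 17 for miR-224 against scrambled and untransfected, 2 to 13 and 4 to 31 for miR-452, 0 to 12 for scrambled against untransfected and 0 to 6 for miR-224 against miR-452. For the line differences they were 9 to 27 (miR-224, untransfected), 2 to 11 (miR-452, untransfected), 2 to 10 (miR-224, scrambled) and 0 to 1 (miR-452, scrambled). Quantile normalization gave 17 (PC3 miR-452 against untransfected), 5 (PC3 scrambled against untransfected), 12 (DU145 miR-452 against untransfected), 5 (DU145 scrambled against untransfected), 2 (DU145 miR-224 against miR-452) and 1 (line difference, miR-452 against untransfected). Median centring gave 17 and 3 for miR-452 against untransfected PC3 and against scrambled DU145. The level filter gave 5 (PC3 scrambled against untransfected) and 2 (DU145 miR-224 against miR-452). Trend and robust moderation gave 8, 11, 16 and 4 in DU145 for miR-224 against scrambled, miR-224 against untransfected, miR-452 against scrambled and miR-224 against miR-452. All 15 arrays in 1 fit gave 13, 5 and 4 in DU145 for miR-452 against scrambled, scrambled against untransfected and miR-224 against miR-452, and the 2 groups alone 17 for DU145 miR-224 against untransfected. The causes were not tested.

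The letters in the array titles were checked as pairs. Deviations of same-lettered arrays correlated with r from -0.147 to 0.273 for PC3 and from -0.31 to 0.051 for DU145. DU145 miR-224 replicate a and miR-452 replicate c, of different letters, correlated with r = 0.31. This is the -0.31 of the same letters with its sign turned, because deviations of 2 arrays from their mean are equal and opposite. These values neither show nor exclude that some arrays were handled together. With the letter as a replicate block 27, 29 and 23 members passed in PC3 for miR-224 against scrambled, untransfected and miR-452. In DU145 0 and 3 passed for miR-224 against scrambled and untransfected, 0 and 3 for miR-452, 1 for scrambled against untransfected and 2 for miR-224 against miR-452, and 1, 0 and 0 for the line differences of miR-224 and miR-452 against untransfected and of miR-224 against scrambled. With the DU145 miR-452 letters crossed in the block, chosen after seeing the data, these 6 DU145 counts were 1, 6, 0, 19, 4 and 4.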
